A study of Macaca mulatta with 6 samples.

Results

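Potassium channel subunits were read on 112 probe sets of 74 genes, taken as every probe set whose array annotation gave exactly 1 gene symbol and whose symbol began with KCN. The array held 52766 probe sets that are not controls, and 24956 of them carried 1 symbol, for 14132 genes. RNA came from serotonin neurons captured by laser from the dorsal raphe nucleus of female rhesus monkeys, 6 in all, with 1 array for each monkey. Of these, 2 monkeys had capsules of estrogen and progesterone, 2 had capsules of estrogen, and 2 had placebo, each under the skin for 1 month before the brain was taken. The titles mark the placebo animals as Ovx, the usual short form of ovariectomized, and the other titles carry no such mark. The labels give no age and no hormone dose, and captured material holds whatever lay in the path of the laser beside the neurons. In such samples fewer cells of a type and less RNA per cell cannot be told apart.

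Potassium channels let potassium leave or enter a cell through a pore formed by the main subunits. They set the resting potential, end the action potential and fix the pause that follows it. Serotonin neurons fire slowly and regularly, and small-conductance calcium-activated channels (KCNN genes) carry the long afterpotential between their spikes. Inward rectifiers gated by G protein (KCNJ3, KCNJ5, KCNJ6 and KCNJ9) are opened through the HTR1A autoreceptor, by which serotonin quiets the cells that release it. Two-pore channels (KCNK) leak at rest, voltage-gated families (KCNA to KCND, KCNH, KCNQ) open on depolarization, and KCNAB, KCNE, KCNIP and KCNMB proteins are partners that alter the gating or the traffic of a pore subunit.

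Estrogen+progesterone is also called both hormones here. The arrays differed in how far signals stood above background. A floor was set on each array at the 95th percentile of the 59 control features that have no expected target, and a probe set brighter than that is called above the floor. Floors were 74.9 and 283 with estrogen+progesterone, 30.0 and 51.6 with estrogen, and 216 and 221 with placebo. Between 58.5% and 62.2% of all probe sets were above the floor on the estrogen arrays, 49.6% on the first estrogen+progesterone array, and 28.7% to 37.3% on the second estrogen+progesterone array and the placebo arrays, which are called the 3 low-signal arrays. Both placebo arrays were low in signal and both estrogen arrays high, so in that comparison treatment cannot be told apart from array signal. Of 8 serotonin neuron markers on the array, FEV, GATA3 and GCH1 were above the floor on all 6, and TPH2, the enzyme that makes serotonin in brain, was above it on both estrogen arrays only. Of 5 general neuron markers 5 cleared the floors of the 3 high-signal arrays together and 4 those of the 3 low-signal arrays together.

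A smaller share of KCN genes than of all named genes was above the floor on every array. With each gene read on its probe set of highest normalized mean, 37 and 22 of the 74 KCN genes were above the floor with estrogen+progesterone, 55 and 51 with estrogen, and 24 and 26 with placebo. As shares these were 50% and 29.7% with estrogen+progesterone, 74.3% and 68.9% with estrogen, and 32.4% and 35.1% with placebo. The shares over all 14132 named genes were 68.8% and 34% with both hormones, 79.1% and 74.6% with estrogen, and 50.6% and 49.97% with placebo. A stricter floor at the brightest of the control probe sets left 31 and 8 KCN genes with estrogen+progesterone, 53 and 43 with estrogen, and 15 and 18 with placebo.

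**Figure D1:**
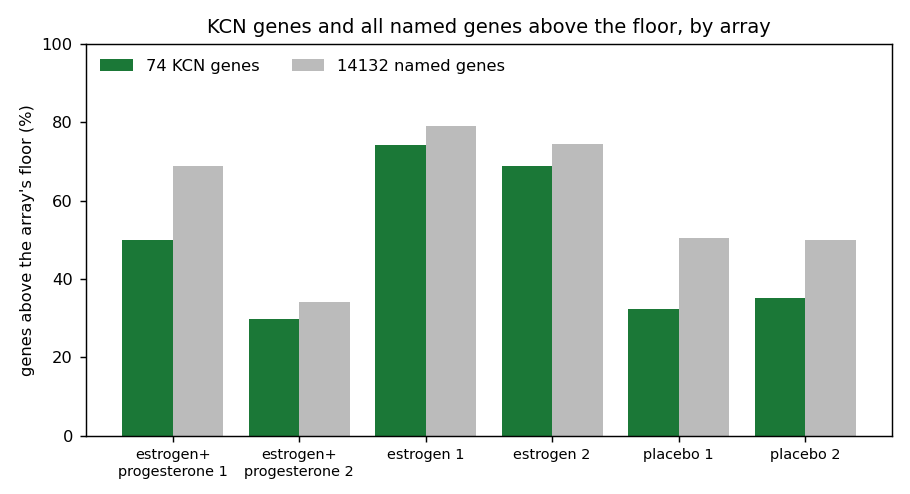
Share of genes above the array's floor (%, vertical axis) on each of the 6 arrays, for the 74 KCN genes (green) and all 14132 named genes (grey). The KCN bar is the shorter on each array, and both bars are low on the second estrogen+progesterone array and the placebo arrays.

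On all 6 arrays, 8 KCN genes were above the floor on their chosen probe sets. They were the inward rectifiers KCNJ2, KCNJ6 and KCNJ10, the leak channel KCNK3, the voltage-gated KCNH2, the silent subunit KCNS2, and the partners KCNAB2 and KCNIP2. On no array was the chosen probe set of 11 genes above the floor: KCNA4, KCNA10, KCNE3, KCNG4, KCNH1, KCNJ14, KCNK7, KCNK13, KCNMB3, KCNN4 and KCNQ5. A further 10 genes were above it, on their chosen probe sets, on each of the 3 other arrays, called high-signal, and on none of the 3 low-signal ones, among them KCNA1, KCNB2, KCNIP4, KCNN1, KCNN3 and KCNQ3. Another KCNB2 probe set (MmuSTS.782.1.S1_at) was above the floor on the second estrogen+progesterone array, at 383, and on the second placebo array, at 248. The chosen probe sets of KCNK2, KCNK4, KCNMA1 and KCNQ1 were above the floor on low-signal arrays only. KCNJ, the largest subfamily on the array, had 8 of its 13 genes above the floor on each estrogen+progesterone array, 11 and 10 with estrogen, and 6 on each placebo array. The 12 KCNK genes counted 4 and 2 with estrogen+progesterone, 8 and 7 with estrogen, and 4 on each placebo array.

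**Figure D2:**
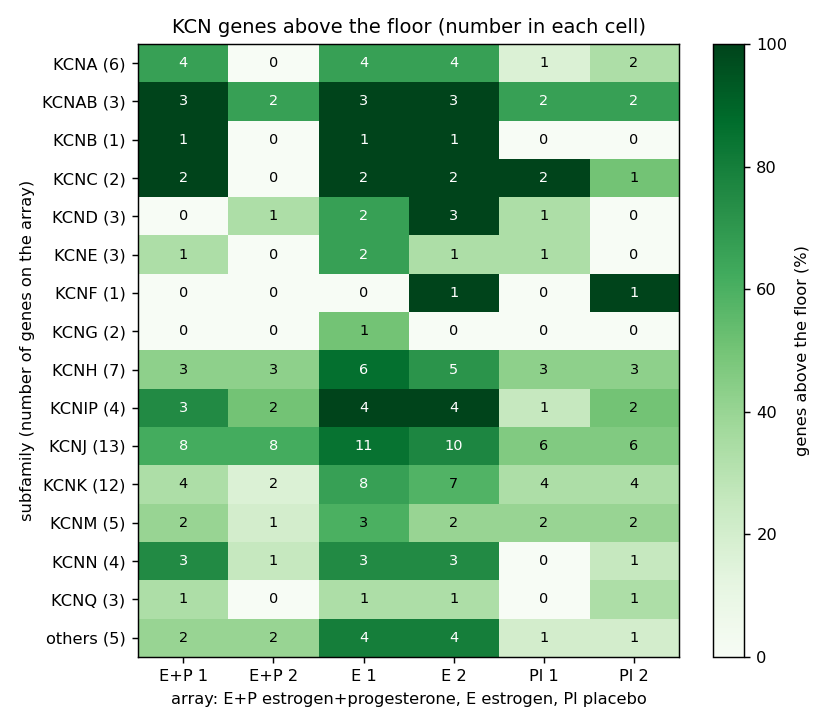
Number of KCN genes above the floor in each subfamily (rows, with the number of genes on the array) and on each array (columns), shaded by the share of the subfamily in percent. The columns of the 3 low-signal arrays are mostly paler, and the KCNJ row has at least 6 genes above the floor on every array.

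A difference in detection between whole groups was most frequent for estrogen and placebo. There 17 of the 74 KCN genes (23.0%) were above the floor on both estrogen arrays and neither placebo array, against 15.2% of all named genes, and 0 KCN genes had the opposite pattern, against 0.531%. The 17 were KCNA1, KCNA3, KCNB2, KCND3, KCNH8, KCNIP1, KCNIP4, KCNJ8, KCNJ16, KCNK5, KCNK10, KCNK18, KCNN1, KCNN3, KCNQ3, KCNS3 and KCNT1. KCNJ8 and KCNJ16 were above the floor on both estrogen+progesterone arrays and neither placebo array (2.70% of KCN genes, against 2.72% of all). On the chosen probe sets KCNH6 alone had the opposite pattern (1.35%, against 1.08%). Against estrogen, 0 KCN genes were above the floor on both estrogen+progesterone arrays only (0.318% of all genes), and 7 (9.46%, against 4.83%) were above it on both estrogen arrays and neither estrogen+progesterone array. Without the second estrogen+progesterone array, which has the highest floor, 12 KCN genes (16.2%, against 14.3% of all) were above the floor with both hormones and on neither placebo array, and 1 (1.35%, against 2.17%) had the opposite pattern. Against estrogen these counts were 0 (1.29% of all genes) and 11 (14.9%, against 7.01%).

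No KCN gene passed the test in any of the 3 comparisons. Signals were taken to log2 after adding 16 and quantile normalized, and limma was fitted to the 26383 probe sets in the upper part of the range of mean signal, from the 50th percentile up. That kept 54 KCN probe sets, with 42 genes represented, and left 32 genes untested as too dim. After Benjamini-Hochberg adjustment 0% of all 26383 probe sets were called in each comparison at a threshold of 0.05. The smallest adjusted p of a KCN gene in limma was 0.635 for estrogen minus placebo, 0.992 for estrogen+progesterone minus placebo and 0.799 for estrogen+progesterone minus estrogen. The standard error of a KCN log2 difference had a median of 0.93 and ran from 0.80 to 1.40 with 2 monkeys in each group.

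The differences of the 42 tested genes centred near 0. Their median log2 difference was -0.05 for estrogen minus placebo, where the median of all 9781 tested genes was 0.28. It was -0.07 for estrogen+progesterone minus placebo, beside -0.10 for all genes, and -0.14 for estrogen+progesterone minus estrogen, beside -0.44 for all genes. Genes with a difference above 0 numbered 21, 20 and 19 of 42 in those comparisons. The sign of the KCN median depended on the scaling: for estrogen minus placebo it was -0.47 without quantile normalization, 0.77 with arrays centred on their medians and 1.92 with arrays scaled to the hybridization controls, while the medians of all genes were 0.26, 1.5 and 2.65. These 3 scalings shift whole arrays, so the KCN median lay 0.73 below that of all genes in each. For estrogen+progesterone minus placebo the KCN median was -0.24, 0.21 and 0.41 in those scalings, and for estrogen+progesterone minus estrogen it was 0.48, -0.32 and -1.26.

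Counts of small unadjusted p values and of separated groups are read against the share among all tested genes. Under an unadjusted 0.05 in limma there was 1 KCN gene (KCNN3) for estrogen minus placebo, where 4.92% of all genes were, 2 (KCNC4 and KCND2) for estrogen+progesterone minus placebo, where 2.38% were, and 0 for estrogen+progesterone minus estrogen, where 0.705% were. Groups of normalized values did not overlap for 13 KCN genes higher in estrogen than in placebo (31.0%, against 30.6% of all genes) and 10 lower (23.8%, against 19.8%). Estrogen+progesterone stood wholly above placebo for 4 genes (9.52%, against 11.7%) and wholly below for 8 (19.0%, against 12.7%). It stood wholly above estrogen for 7 genes (16.7%, against 13.5%) and wholly below for 8 (19.0%, against 17.9%). Without the second estrogen+progesterone array estrogen+progesterone was above placebo for 11 genes (26.2%, against 40.9% of all) and below for 16 (38.1%, against 24.7%), and above estrogen for 9 (21.4%, against 34.5%) and below for 18 (42.9%, against 27.0%).

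**Figure D3:**
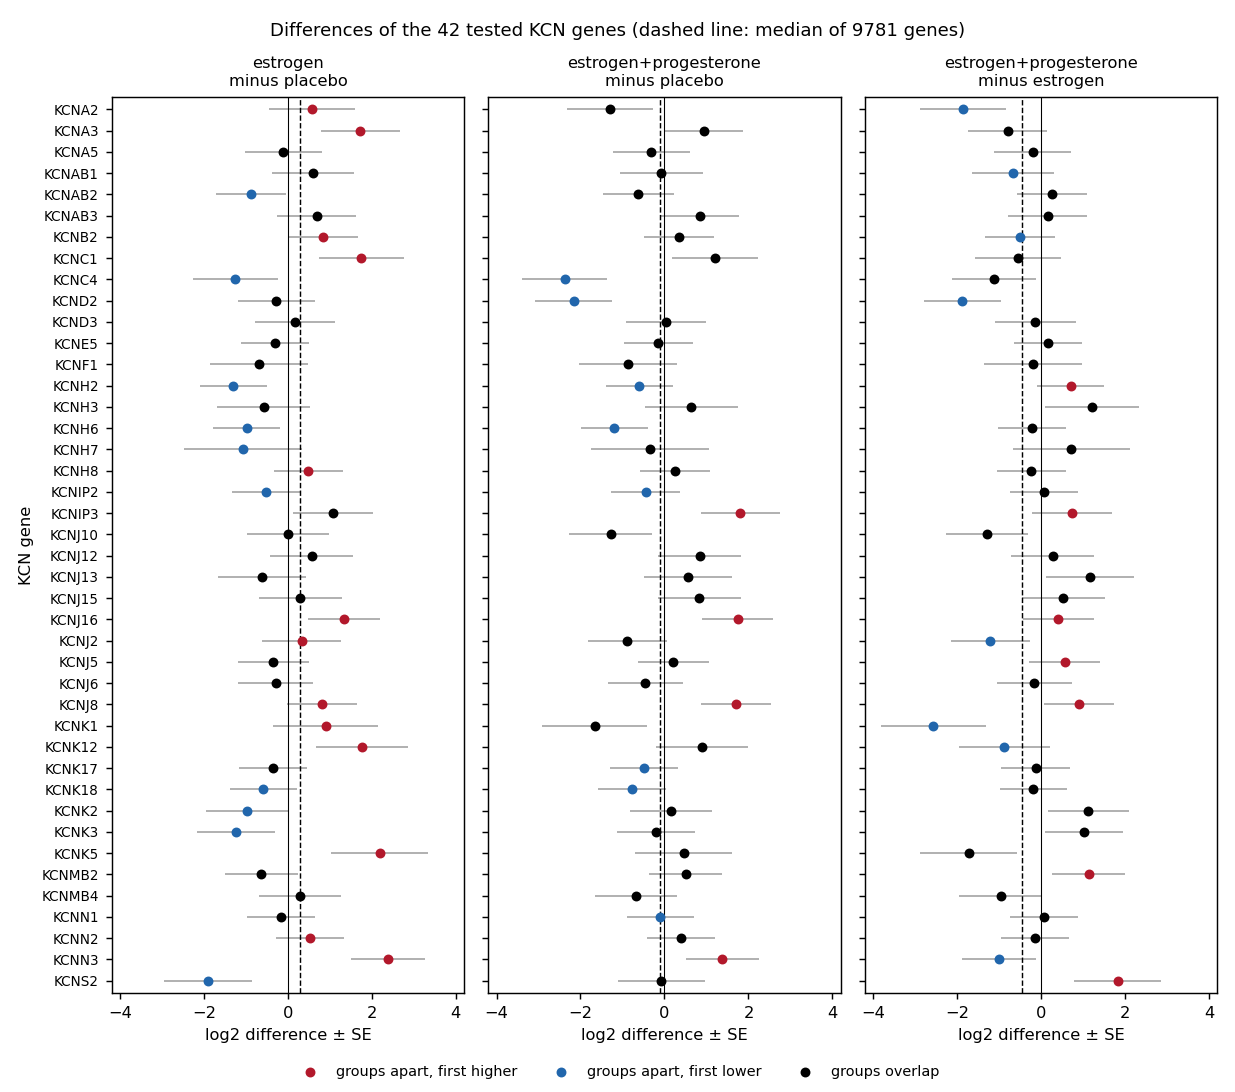
Log2 difference ± SE (horizontal axis) of the 42 tested KCN genes in the 3 comparisons, coloured by whether the normalized values of the 2 groups overlap; the dashed line is the median of all 9781 genes. KCNN3 has the largest positive value for estrogen minus placebo (2.39), and no point passed the adjusted threshold.

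The G-protein-gated inward rectifiers were represented by KCNJ5, KCNJ6 and KCNJ9, and KCNJ3 has no named probe set here. KCNJ6, the subunit that can form these channels on its own, had signals of 333 and 506 with estrogen+progesterone, 777 and 615 with estrogen, and 377 and 864 with placebo, all above the floor. The groups overlapped in every pairing, and its normalized log2 differences were -0.46 ± 0.90 for estrogen+progesterone minus placebo, -0.29 ± 0.90 for estrogen minus placebo and -0.16 ± 0.90 for estrogen+progesterone minus estrogen (SE, n = 2 monkeys per group). Without the second placebo array the first was 0.32 and the second 0.48. KCNJ5, which pairs with KCNJ3 in heart and is also found in brain, had 115 and 176 with both hormones, 33.8 and 59.0 with estrogen, and 235 and 104 with placebo, and was above the floor on 4 arrays. KCNJ9, a subunit of mixed channels, read 14.3 and 143 with both hormones, 5.29 and 113 with estrogen, and 18.6 and 45.2 with placebo. Only the second estrogen array had KCNJ9 above its floor.

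Among genes on the route from receptor to these channels, 10 of 14 listed were on the array and 8 were tested, and none passed. Their median log2 difference was 0.52 for estrogen minus placebo, -0.36 for estrogen+progesterone minus placebo and -0.86 for estrogen+progesterone minus estrogen. The HTR1A probe set itself was above the floor on the second estrogen array only, at 56.2. The 3 with the smallest unadjusted p for estrogen minus placebo were the G protein subunits GNB4 (-1.42 ± 0.90), GNAO1 (0.98 ± 0.85) and GNAI3 (0.95 ± 0.84, all SE, n = 2 monkeys per group).

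**Figure D4:**
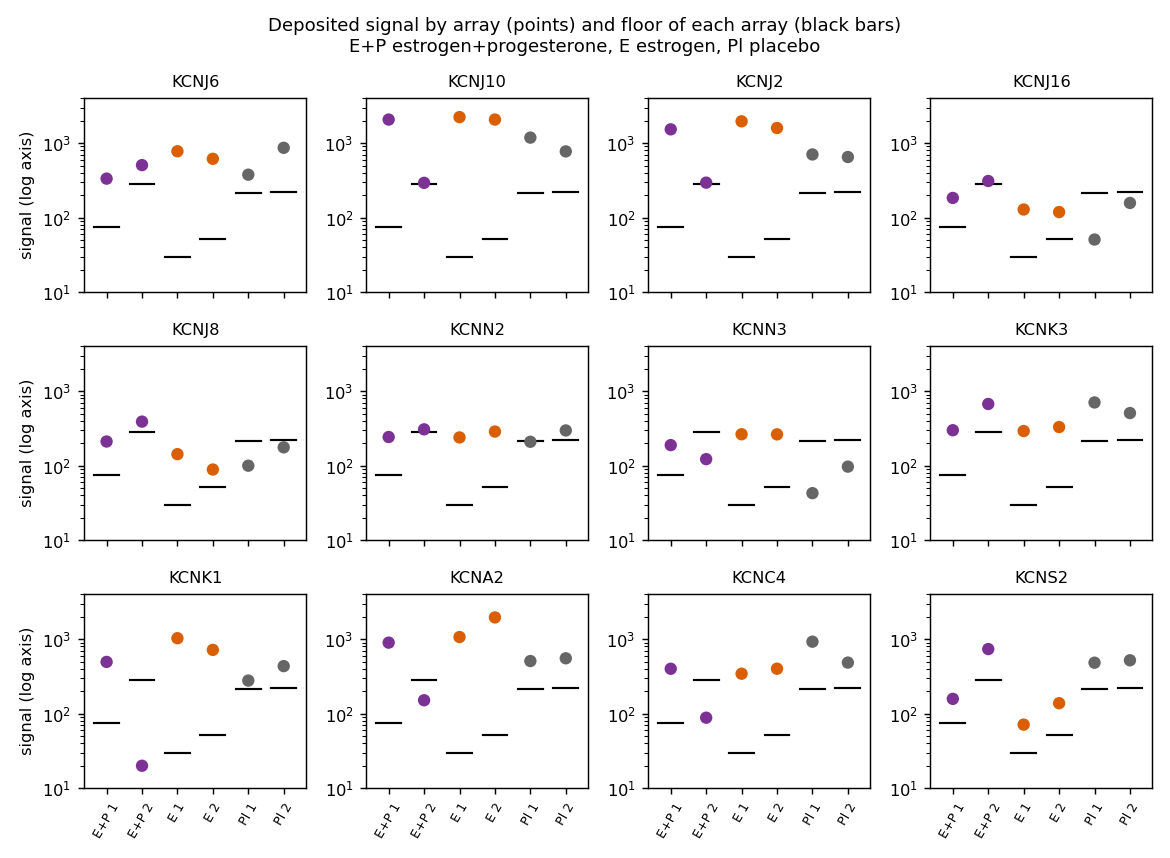
Deposited signal (vertical axis, log scale) of 12 KCN genes on the 6 arrays, with each array's floor as a black bar; E+P stands for estrogen+progesterone, E for estrogen and Pl for placebo. KCNJ10 and KCNJ2 are near the floor on the second estrogen+progesterone array, and KCNN3 is below the floor on both placebo arrays.

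KCNJ10 is the main inward rectifier of astrocytes and oligodendrocytes, where it takes up potassium released by active neurons. Its signals were 2067 and 293 with estrogen+progesterone, 2230 and 2068 with estrogen, and 1184 and 773 with placebo. The second estrogen+progesterone array was the lowest and close to its floor, and the deposited signals of estrogen lay above those of placebo. After quantile normalization estrogen and placebo overlapped, with a log2 difference of 0.01 ± 0.98, and estrogen+progesterone minus estrogen was -1.29 ± 0.98 (SE, n = 2 monkeys per group, limma adjusted p 0.998 and 0.799). Without the second estrogen+progesterone array, estrogen+progesterone minus estrogen was -0.05. The summed signal of 10 astrocyte markers was 81279 and 4641 with estrogen+progesterone, 70918 and 82244 with estrogen, and 24843 and 25581 with placebo. Of those markers 9 cleared the floors of the 3 high-signal arrays together and 5 those of the 3 low-signal arrays together, and SOX9 was above it on 1 array. After normalization 8 of 9 tested astrocyte markers were higher in estrogen than in placebo (median 1.16). The low sum on the second estrogen+progesterone array was not particular to astrocytes. The 5 general neuron markers summed to 17379 and 1812 with estrogen+progesterone, 20029 and 22411 with estrogen, and 4498 and 7477 with placebo. The 4 oligodendrocyte markers summed to 50433 and 2530 with estrogen+progesterone, 37356 and 52921 with estrogen, and 33630 and 47019 with placebo. Of these, 2 passed every floor, and the placebo sums overlapped those of estrogen. The 8 serotonin neuron markers summed to 1648 and 2375 with estrogen+progesterone, 1774 and 1063 with estrogen, and 2158 and 1996 with placebo. Their sum was highest on the second estrogen+progesterone array. The part of astrocytes, oligodendrocytes or neurons in the KCNJ10 result was not tested. A second KCNJ10 probe set (MmuSTS.2930.1.S1_at) read 231 and 500 with both hormones, 172 and 203 with estrogen, and 222 and 215 with placebo, with its highest value where the first had its lowest.

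KCNJ16, which joins KCNJ10 in mixed channels, read 184 and 310 with estrogen+progesterone, 128 and 119 with estrogen, and 50.8 and 157 with placebo. It was above the floor on all hormone arrays and neither placebo array. A dim group gives only a bound on the difference of group means, taken on the normalized scale. The bright group's mean was set over the dim group's mean. Each dim array was put at its floor or its own value, whichever is higher. Such a bound need not hold for deposited signals or for a single array. KCNJ16 was at least 1.48-fold higher in estrogen+progesterone than in placebo, and the fit gave 1.74 ± 0.85 on the log2 scale (SE, n = 2 monkeys per group, limma adjusted p 0.992). Without the first placebo array that value was 1.11. KCNJ8, the pore of ATP-sensitive channels in pericytes and smooth muscle of vessels, read 211 and 390 with both hormones, 143 and 88.7 with estrogen, and 99.9 and 176 with placebo. It was at least 1.95-fold higher in estrogen+progesterone than in placebo, with a fitted difference of 1.71 ± 0.84 (limma adjusted p 0.992). For both genes the normalized groups did not overlap, and the sign of that difference held in all 18 settings tried. Several settings, among them the filter, the prior, the array weights and the replicate block, leave a fitted difference unchanged and cannot turn its sign. This limit holds wherever settings are counted here. The 6 endothelial and pericyte markers summed to 1288 and 842 with both hormones, 791 and 896 with estrogen, and 958 and 1311 with placebo. Of these markers, 4 and 1 were above the floor with both hormones, 5 and 5 with estrogen, and 2 and 3 with placebo. FLT1 passed no floor, and their part was not tested.

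KCNJ2, a strong inward rectifier that holds the resting potential, was likewise lowest on the second estrogen+progesterone array. It read 1528 and 294 with both hormones, 1957 and 1593 with estrogen, and 703 and 650 with placebo. Estrogen+progesterone minus estrogen came to -1.21 ± 0.93 on the log2 scale (SE, n = 2 monkeys per group, limma adjusted p 0.799), with groups apart. Over 20 settings that difference ran from -3.11 to -0.14, and its weakest value was without the second estrogen+progesterone array.

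Of the calcium-activated family, KCNN3 had the largest KCN difference of estrogen from placebo on the chosen probe set of each gene. KCNN3 is one of the small-conductance channels behind the afterpotential of serotonin neurons. It read 189 and 122 with estrogen+progesterone, 264 and 263 with estrogen, and 42.8 and 97.0 with placebo. The estrogen arrays were nearly equal, the placebo arrays were below all others, and the first estrogen+progesterone array was above its floor while the second was not. The fitted log2 difference was 2.39 ± 0.88 for estrogen minus placebo (limma unadjusted p 0.0220, adjusted p 0.635), 1.38 ± 0.88 for estrogen+progesterone minus placebo (adjusted p 0.992) and -1.01 ± 0.88 for estrogen+progesterone minus estrogen (adjusted p 0.799, SE, n = 2 monkeys per group). Since both placebo values were below the floor, the bound for estrogen over placebo was at least 1.78-fold. The sign of all 3 held in every setting, and estrogen minus placebo ran from 0.96 to 4.17 with adjusted p of 0.0835 to 1.0. The 0.96 came with array signal class as a covariate. Only estrogen+progesterone holds both classes, so that term was set by the difference between its 2 monkeys. It cannot separate treatment from array signal, and later values with this covariate carry the same limit. Without the first estrogen+progesterone array, estrogen+progesterone minus placebo was 0.66, and without the second, estrogen+progesterone minus estrogen was -0.29.

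The fitted differences of the other KCNN genes were smaller. KCNN2, the small-conductance subunit with wide expression in brain, read 242 and 307 with both hormones, 239 and 287 with estrogen, and 209 and 297 with placebo. Its difference of estrogen from placebo was 0.53 ± 0.82, with normalized groups apart and raw signals overlapping, and 0.14 without the first placebo array. KCNN1 read 85.4 and 196 with both hormones, 42 and 99.2 with estrogen, and 184 and 200 with placebo, with a difference of -0.17 ± 0.81 for estrogen minus placebo (all SE, n = 2 monkeys per group). KCNN4, known from blood cells and epithelia, was below the floor on all arrays.

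KCNMA1 is the pore of the large-conductance channel. Its chosen probe set read 3.40 and 195 with both hormones, 27.5 and 27.9 with estrogen, and 108 and 228 with placebo, and was above the floor on the second placebo array only. Another KCNMA1 probe set (MmugDNA.8277.1.S1_s_at) cleared the floor with estrogen, reading 73.8 and 84.2. A further KCNMA1 probe set cleared it on the first estrogen array alone, at 50.1. KCNMB4, its partner of brain, read 1357 and 277 with both hormones, 1626 and 987 with estrogen, and 414 and 808 with placebo, and on this probe set missed the floor only on the second estrogen+progesterone array. Its other tested probe set (MmuSTS.1411.1.S1_at) was above the floor on all 6. Its differences on the first probe set were 0.29 ± 0.98 for estrogen minus placebo and -0.97 ± 0.98 for estrogen+progesterone minus estrogen, with overlap in both. The first was -0.33 without the first placebo array, and the second was 0.12 without the second estrogen+progesterone array. For estrogen minus placebo MmuSTS.1411.1.S1_at gave -0.53 and MmugDNA.27782.1.S1_at 0.72. For estrogen+progesterone minus estrogen they gave 0.39 and -1.36. KCNMB2, an inactivating partner, read 106 and 352 with both hormones, 35.5 and 67.6 with estrogen, and 274 and 149 with placebo, and was higher in estrogen+progesterone than in estrogen by 1.14 ± 0.87 (SE, n = 2 monkeys per group), with groups apart. It was 0.60 without the second estrogen+progesterone array, and its sign turned, to -0.06, under scaling to the hybridization controls.

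Leak channels had differences of both signs between estrogen and placebo. KCNK3, an acid-sensitive leak channel, read 299 and 672 with estrogen+progesterone, 291 and 330 with estrogen, and 704 and 508 with placebo. Estrogen was below placebo by a log2 difference of -1.24 ± 0.93, but the sign turned with arrays centred on their medians (0.33), with scaling to hybridization controls (1.48) and with array signal class as a covariate (0.79). KCNK5, an alkaline-activated channel, read 244 and 24.3 with both hormones, 345 and 211 with estrogen, and 38.9 and 149 with placebo. On this probe set estrogen was above placebo by 2.18 ± 1.15 and by a bound of at least 1.79-fold on normalized group means. The second estrogen signal was under the placebo floors of 216 and 221. The sign turned with array signal class as a covariate (-1.18). Another KCNK5 probe set (MmuSTS.2934.1.S1_at), not tested, was above the floor on no array. It read 53.4 and 51.1 with both hormones, 29.1 and 18.2 with estrogen, and 47.5 and 212 with placebo. KCNK12, a subunit that gives little current when expressed alone, read 238 and 194 with both hormones, 286 and 415 with estrogen, and 318 and 31.5 with placebo. Its difference of 1.77 ± 1.09 for estrogen minus placebo rested largely on the second placebo array, without which it was 0.22 (all SE, n = 2 monkeys per group).

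KCNK1, a weakly conducting leak channel of neurons and glia, had the most negative difference of the tested KCN genes in any comparison. Its first probe set (MmuSTS.1406.1.S1_at) read 495 and 20 with both hormones, 1031 and 718 with estrogen, and 278 and 435 with placebo. Estrogen+progesterone minus estrogen was -2.56 ± 1.26 (SE, n = 2 monkeys per group, limma adjusted p 0.799), and it was -0.47 without the second estrogen+progesterone array. The second KCNK1 probe set (MmugDNA.12778.1.S1_at) read 344 and 38.6 with both hormones, 238 and 519 with estrogen, and 64.6 and 38.4 with placebo. There estrogen minus placebo was 2.94 ± 1.11 (unadjusted p 0.0244, adjusted p 0.635 in limma), beside 0.90 ± 1.26 on the first, where it turned to -3.28 with array signal class as a covariate. KCNK2, a mechanically and lipid-gated leak channel, read 40.4 and 373 with both hormones, 25.7 and 41.5 with estrogen, and 161 and 229 with placebo, and was above the floor only on the second array of estrogen+progesterone and of placebo.

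Of 6 Shaker-type genes (KCNA), 4 were above the floor on each high-signal array and 0 to 2 on the low-signal arrays. KCNA2, an axonal channel that limits firing, read 899 and 152 with estrogen+progesterone, 1069 and 1958 with estrogen, and 509 and 554 with placebo. Estrogen+progesterone minus estrogen was -1.87 ± 1.02, negative in all 20 settings, from -3.65 to -0.50. The -0.50 came without the second estrogen+progesterone array, where KCNA2 was below its floor. KCNA3, best known from lymphocytes and microglia and also present in neurons, read 354 and 115 with both hormones, 384 and 216 with estrogen, and 134 and 120 with placebo, and was at least 1.86-fold higher in estrogen than in placebo (fitted 1.73 ± 0.94, limma adjusted p 0.655). The sign turned with array signal class as a covariate (-0.40). The 10 microglial markers summed to 5913 and 2244 with both hormones, 4658 and 4480 with estrogen, and 3286 and 3967 with placebo; 7 cleared the floors of the 3 high-signal arrays together and 3 those of the 3 low-signal arrays together, and their part was not tested. KCNA1, a fast low-threshold axonal subunit, read 103 and 218 with both hormones, 47.0 and 108 with estrogen, and 133 and 17.2 with placebo, and was not tested. KCNAB2, the cytoplasmic partner of these channels, read 882 and 668 with both hormones, 959 and 1302 with estrogen, and 878 and 1305 with placebo. Those signals overlap between groups, and the normalized difference of -0.88 ± 0.84 for estrogen minus placebo turned sign in all 3 other scalings (all SE, n = 2 monkeys per group).

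The high-threshold KCNC channels let neurons fire fast. KCNC1 read 246 and 152 with both hormones, 249 and 177 with estrogen, and 226 and 28.2 with placebo, with a difference of 1.75 ± 1.02 for estrogen minus placebo. The second placebo array was far below the other 5, and without it the difference was 0.55. With array signal class as a covariate it was 0.30. KCNC4 read 401 and 88.4 with both hormones, 344 and 402 with estrogen, and 925 and 485 with placebo on its first probe set (MmugDNA.39652.1.S1_at). It was lower than placebo by -2.37 ± 1.01 in estrogen+progesterone (limma unadjusted p 0.0411, adjusted p 0.992) and by -1.25 ± 1.01 in estrogen, with groups apart in both. Without the second estrogen+progesterone array, where KCNC4 was below its floor, estrogen+progesterone minus placebo was -1.12. The estrogen difference turned sign under median centring (0.42) and under hybridization-control scaling (1.57). A second KCNC4 probe set (MmugDNA.17937.1.S1_at) gave 0.15 and 0.53 in those comparisons (all SE, n = 2 monkeys per group).

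KCND2 and KCND3 carry the transient current that spaces spikes, and KCNIP proteins bind them. KCND2 read 14.3 and 68.4 with estrogen+progesterone, 40.4 and 263 with estrogen, and 323 and 187 with placebo. Estrogen+progesterone was below placebo by -2.16 ± 0.92 (limma unadjusted p 0.0411, adjusted p 0.992) and below estrogen by -1.88 ± 0.92 (adjusted p 0.799), both negative in every setting. Without the second estrogen array, estrogen+progesterone minus estrogen was -1.12 for KCND2. Both estrogen+progesterone arrays were below their floors, which left a bound of at least 1.07-fold lower than estrogen on normalized group means. Both deposited estrogen signals were under the second estrogen+progesterone floor of 283, so deposited signals give no bound against that array. KCND2 was below the floor on the second placebo array as well, so no bound against placebo could be given. KCND3 read 30.0 and 317 with both hormones, 47.4 and 107 with estrogen, and 128 and 205 with placebo, and its groups overlapped. KCNIP3, which also acts as a calcium-sensitive repressor of transcription, read 369 and 365 with both hormones, 171 and 158 with estrogen, and 50.6 and 272 with placebo. It was higher than placebo by 1.81 ± 0.95 in estrogen+progesterone (all SE, n = 2 monkeys per group), and by 0.66 without the first placebo array, the lowest of 18 settings. KCNIP2 read 225 and 396 with both hormones, 225 and 375 with estrogen, and 401 and 418 with placebo, and its differences were within 0.52 either way in the fit as reported. Over the settings tried, estrogen minus placebo ran from -0.73 to 1.92 for KCNIP2, and the sign turned in all 3 comparisons. KCNIP4 was not tested, at 90.4 and 18.8 with both hormones, 68.4 and 119 with estrogen, and 46.7 and 134 with placebo.

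KCNS2 forms no channel alone and changes the currents of KCNB subunits. It read 158 and 736 with estrogen+progesterone, 71.4 and 138 with estrogen, and 483 and 521 with placebo. On this probe set the 3 high-signal arrays were the low ones and the 3 low-signal arrays the high ones, with no overlap. Estrogen minus placebo was -1.90 ± 1.04 and estrogen+progesterone minus estrogen 1.83 ± 1.04 (SE, n = 2 monkeys per group, limma adjusted p 0.656 and 0.799), and both turned sign, to 0.24 and -0.11, under hybridization-control scaling. With array signal class as a covariate estrogen minus placebo was 1.04, and without the second estrogen+progesterone array estrogen+progesterone minus estrogen was 0.36. Another KCNS2 probe set (MmugDNA.40202.1.S1_at) read 52.6 and 408 with both hormones, 49.5 and 6.73 with estrogen, and 350 and 42.9 with placebo. There the second placebo array fell among the high-signal arrays. It gave -1.10 for estrogen minus placebo and 1.77 for estrogen+progesterone minus estrogen. The KCNB2 signals were 118 and 192 with both hormones, 108 and 202 with estrogen, and 214 and 113 with placebo.

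KCNH2, the channel of the cardiac rapid delayed rectifier, which brain also expresses, read 245 and 384 with both hormones, 152 and 140 with estrogen, and 434 and 439 with placebo. Placebo was above both hormone groups, and estrogen minus placebo was -1.30 ± 0.80 (limma adjusted p 0.680), with a turned sign (0.91) under hybridization-control scaling. Another KCNH2 probe set (MmugDNA.21125.1.S1_at) gave 0.38 ± 0.95. KCNH6, a relative of KCNH2, read 45.2 and 142 with both hormones, 42.4 and 56.6 with estrogen, and 243 and 255 with placebo. On this probe set the bound on normalized group means was at least 1.26-fold lower in estrogen+progesterone than in placebo. The fitted difference was -1.19 ± 0.80 (limma adjusted p 0.992), negative in all 18 settings. Both placebo signals were under the second estrogen+progesterone floor of 283, so that array alone gives no bound. Another KCNH6 probe set (MmugDNA.9796.1.S1_at), not tested, read 94.2 and 95.5 with both hormones, 11.3 and 8.92 with estrogen, and 31.8 and 19.1 with placebo. It was above the floor on the first estrogen+progesterone array only. KCNH7, another relative, read 12.7 and 596 with both hormones, 46.8 and 69.3 with estrogen, and 383 and 190 with placebo. Its 2 estrogen+progesterone monkeys lay 4.87 apart on the normalized log2 scale, and estrogen minus placebo was -1.06 ± 1.40, with a turned sign under hybridization-control scaling (0.43) and with array signal class as a covariate (3.8; all SE, n = 2 monkeys per group).

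KCNQ subunits form the muscarine-sensitive current that restrains repetitive firing. KCNQ3 read 123 and 21.9 with both hormones, 125 and 68.9 with estrogen, and 147 and 136 with placebo, and passed the floor on the 3 high-signal arrays. KCNQ5 was below the floor on all arrays, with 58.5 and 271 with both hormones, 5.07 and 29.1 with estrogen, and 146 and 24.6 with placebo, and neither gene was tested. The leak channel KCNK9 has no named probe set here.

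The monkeys of a group differed by unequal amounts. The median absolute difference between the 2 monkeys over the 42 tested KCN genes was 1.02 on the normalized log2 scale with estrogen+progesterone, 0.31 with estrogen and 0.999 with placebo. Over all tested genes these medians were 1.55 with estrogen+progesterone, 0.36 with estrogen and 0.88 with placebo. Differences above 1 were seen for 21 KCN genes with estrogen+progesterone, 1 with estrogen (KCND2, at 1.51) and 21 with placebo. The largest with placebo was KCNF1, a silent subunit, at 3.64.

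**Figure D5:**
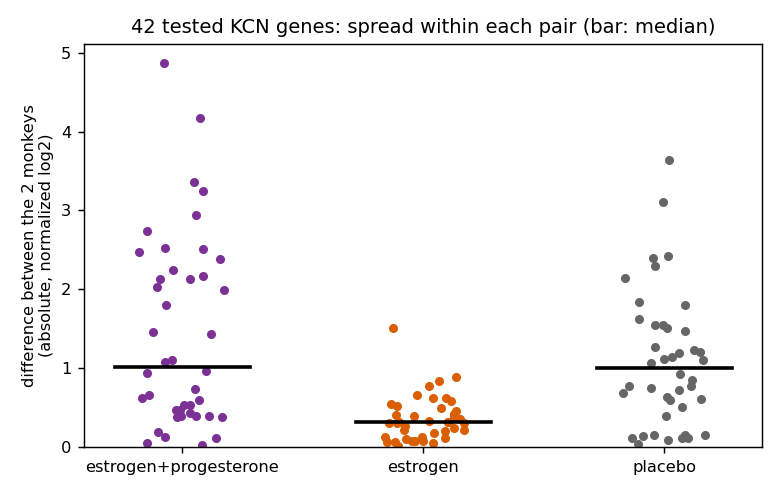
Absolute difference between the 2 monkeys of each group (vertical axis, normalized log2) for the 42 tested KCN genes, 1 point per gene, with the median as a bar. The estrogen pair lies close together (median 0.31) and the other pairs near 1.

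Probe sets of the same gene often disagreed. Of the 74 genes, 28 had more than 1 probe set, and for 12 of those at least 1 probe set was above the floor on no array. In 12 pairs of tested probe sets, from 11 genes, the sign was the same in 8 pairs for estrogen minus placebo, in 7 for estrogen+progesterone minus placebo and in 6 for estrogen+progesterone minus estrogen. Of those 11 genes, 10 had a pair with opposite signs in at least 1 comparison, and KCNA3 had none. The KCNA3 probe sets still differed in size, at 1.73 and 0.15 for estrogen minus placebo.

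Other genes of potassium handling did not pass the test either. Of 21 listed partners of KCN channels with other symbols 9 were tested, with medians of -0.05 for estrogen minus placebo, 0.02 for estrogen+progesterone minus placebo and 0.05 for estrogen+progesterone minus estrogen. The 3 with the smallest unadjusted p for estrogen minus placebo were LGI1, a secreted partner of axonal channels (1.15 ± 1.04), the scaffold DLG2 (0.59 ± 0.83) and DPP10, a partner of KCND channels (0.52 ± 0.96). Of 14 listed pumps, cotransporters and resting-current channels 3 were tested. Estrogen minus placebo was -0.86 ± 0.88 for the pacemaker channel HCN3, 1.05 ± 1.49 for SLC12A5, the neuronal potassium-chloride cotransporter, and -0.36 ± 0.85 for ATP1B1, a sodium pump subunit (all SE, n = 2 monkeys per group).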

How the data were processed

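The authors deposited 1 linear intensity for each probe set and array, with no log transformation, as the values show. With 2% trimmed at either end, the arrays all had means close to 200. They had thus been brought to a common target. Such scaling can raise background on an array with little labelled RNA, and whether it did so here was not tested. RNA was extracted with a column microkit and labelled with biotin, per the labels' protocols. Which software summarized the probes is not given in the sources used here.

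Gene symbols came from the platform annotation, and 71 of the 74 KCN genes matched the RefSeq gene table by gene number. Genomic positions and sequences are not given here. An offset of 16 was added to each intensity before log2, and arrays were then quantile normalized; fold changes of dim probe sets are therefore understated on this log2(value + 16) scale. Control probe sets were left out. The limma package (3.58.1, R 4.3.3) fitted a mean per group over 6 arrays, with two-sided moderated tests, 3 residual degrees of freedom and Benjamini-Hochberg adjustment over all 26383 probe sets tested. Exact permutation of 2 monkeys against 2 reaches at best p = 0.333 and was not used. The number of arrays limits the precision. Each gene was represented by its probe set of highest normalized mean, and signals of different probe sets were not compared.

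Genes named are a panel of 26 (22 on the array), those above the floor on all arrays, and in each comparison up to 5 higher and 5 lower genes of smallest unadjusted p whose groups were apart by a fitted log2 difference of 1 or more, besides up to 3 per pathway list. The KCN members, the panel and the lists were chosen with earlier results of these data known. Alternatives changed the offset, scaling, filter, prior, array weights, groups in the fit, a replicate block, an array signal class and the probe set, and left out each array in turn. The filter, prior, array weights, groups in the fit and replicate block left the fitted differences of a probe set unchanged. The fit was tested on simulated data.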

Additional observations from a re-analysis of the deposited data

How the results depend on the processing

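With 2 monkeys per group, 0 probe sets were called by limma in each comparison, with 2065 under an unadjusted 0.05 for estrogen minus placebo, 870 for estrogen+progesterone minus placebo and 464 for estrogen+progesterone minus estrogen. Array weights gave 434 calls for estrogen minus placebo (288 higher, 0 of them KCN). Leaving out each array in turn gave 0 to 4200 calls for estrogen+progesterone minus estrogen and 0 for the comparisons with placebo. The 4200 came without the first estrogen+progesterone array, where the group is the low-signal array alone, whose spread is assumed to be that of the other groups; 1470 were higher, and 5 KCN probe sets of KCNA2, KCNK1, KCNK5 and KCNS2 were called, 1 of them higher. The other alternatives gave 0 calls in each comparison they were run in; the high-signal arrays alone were used for estrogen+progesterone minus estrogen only. Same-numbered arrays deviated together with r of 0.082 for estrogen+progesterone and estrogen, -0.063 for estrogen+progesterone and placebo and -0.032 for estrogen and placebo. With 2 arrays per group these values cannot exclude that same-numbered arrays were processed together. The main fit took the numbers as names only. With the replicate block 0 probe sets were called by limma in each comparison. Under an unadjusted 0.05 there were 2072 for estrogen minus placebo, 808 for estrogen+progesterone minus placebo and 765 for estrogen+progesterone minus estrogen. With array signal class as a covariate the median KCN difference of estrogen from placebo was 0.19, beside -0.50 for all genes. That term was set by the 2 estrogen+progesterone arrays alone, so it cannot separate treatment from array signal. The cause of the changes was not tested. Signals near the floor of the 3 low-signal arrays limit what could be measured there.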
